A study of Homo sapiens with 9 samples.

Results

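The NEDD4 family of ubiquitin ligases was followed in HEK293 cells, an established human line of embryonic kidney origin, that were transiently transfected with surfactant protein C (SP-C, gene SFTPC). Its 9 members were NEDD4, NEDD4L, ITCH, WWP1, WWP2, SMURF1, SMURF2, HECW1 and HECW2. They were 9 of 19775 genes with a probe set that the platform annotation gives to that gene alone, and they had 34 such probe sets. A probe set is the group of array probes that gives 1 signal for a transcript, and the one with the highest mean over all arrays represented its gene. The LQ cells received SP-C with the L188Q substitution, the Ex4 cells received SP-C without exon 4, and the WT cells received wild-type SP-C and were the control. All groups carried transfected SFTPC, each had 3 Affymetrix arrays, and no untransfected or empty-vector cells were analysed here. A transient transfection leaves a mixture of cells with and without the construct, and in such bulk RNA fewer cells with a transcript and less of it per cell cannot be told apart. The series asked what misfolded SP-C does to the transcripts of these cells.

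NEDD4 family enzymes are ubiquitin ligases of the HECT type. A C2 domain binds membranes, several WW domains bind short proline- and tyrosine-rich (PY) motifs in partner proteins, and the HECT domain passes ubiquitin from its own catalytic cysteine to the substrate. They are known for marking membrane proteins for uptake and for sorting into multivesicular bodies. The cytosolic tail of the SP-C proprotein carries a PY motif that NEDD4 family WW domains bind, and this contact is known to be needed for its transport to the compartments where it is processed. The deletion and the substitution both lie in the lumenal part of the proprotein, away from that tail.

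The arrays themselves differed between the groups. Array medians were 303.9 to 371.8 on LQ arrays, 316.1 to 434.3 on Ex4 arrays and 506.4 to 524.4 on WT arrays, although trimmed means were 1493.3 to 1494.9 on all of them. The ratio of 3' to 5' signal of GAPDH was 1.056 to 1.087 in LQ, 0.956 to 1.225 in Ex4 and 1.215 to 1.433 in WT. That of ACTB was 1.151 to 1.227 in LQ, 1.145 to 1.481 in Ex4 and 1.054 to 1.267 in WT, with all groups overlapping. Ex4 replicate 1 correlated on average at 0.906 with the other Ex4 arrays and at 0.911 with the WT arrays, so some Ex4 values are also given without it. On SFTPC probe set 214387_x_at the signal was 914.4, 39.1 and 28.7 on Ex4 replicates 1, 2 and 3, against 108292 to 126185 in LQ and 158962 to 239964 in WT, so the 3 Ex4 arrays stood apart as labelled. On 211735_x_at, the brightest SFTPC probe set, it was 108963 to 132058 in LQ, 97630 to 169241 in Ex4 and 173160 to 261955 in WT, with both mutants below WT. All 6 HEK293 markers were tested, with summed signals of 132906 to 146254 in LQ, 128857 to 134039 in Ex4 and 135689 to 178633 in WT. Of the blood markers 3 of 5 with a probe set passed the filter on dim probe sets. The summed signal of all 5 was 1264.1 to 1283.2 in LQ, 1328.6 to 1543.5 in Ex4 and 2348.3 to 2928.2 in WT. Of the fibroblast markers 2 of 5 passed, and the sums of all 5 were 3120.6 to 4277 in LQ, 4626.3 to 5850.5 in Ex4 and 6480.3 to 7800.8 in WT. Of the alveolar type II markers 5 of 6 passed, and the sums of all 6 were 4095.9 to 5044 in LQ, 3683.5 to 4301 in Ex4 and 4098.8 to 6266 in WT. No marker of any list was at 0, although those that did not pass the filter were dim. The part of these differences in the results that follow was not tested.

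One member rose. NEDD4L, the ligase known for removing the epithelial sodium channel from the surface of kidney and lung epithelium, was 1.54-fold higher in LQ than in WT on its representative probe set. NEDD4, ITCH, WWP1, WWP2, SMURF1, SMURF2, HECW1 and HECW2 did not pass the threshold in LQ, and no member passed it in Ex4. Between LQ and Ex4 no member passed either. A gene passed where limma's p, adjusted by Benjamini-Hochberg over 32768 probe sets, was under 0.05, and changes are of log2(signal + 16), so the change of a dim probe set is understated.

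The NEDD4L signal on probe set 212445_s_at was 10342.7, 9837.3 and 10063.8 on the LQ arrays, 8664.6, 7338.1 and 7348.7 on the Ex4 arrays, and 6488.1, 6774.1 and 6364.5 on the WT arrays. The 3 LQ arrays lay above all Ex4 arrays and the Ex4 arrays above all WT arrays, so none of the groups overlapped. The means were 10081 ± 253 in LQ, 7784 ± 763 in Ex4 and 6542 ± 210 in WT (SD, n = 3). In LQ against WT the log2 change was 0.62 ± 0.14 (SE, 95% interval 0.31 to 0.93, limma adjusted p = 0.0327). In Ex4 against WT it was 0.25 ± 0.14 (95% interval -0.06 to 0.55, limma adjusted p = 0.295). In LQ against Ex4 it was 0.38 ± 0.14 (SE, limma adjusted p = 1), so a difference between the mutants is not shown. Without Ex4 replicate 1 these 3 changes were 0.62, 0.17 and 0.46 (limma adjusted p = 0.0159, 0.47 and 0.544). Of 14018 representative probe sets, 9.94% had a log2 change in LQ as high as that of NEDD4L or higher.

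The NEDD4L call depended on the arrays and on the scaling. Leaving out 1 array at a time gave log2 changes of 0.60 to 0.65, and the call held in 4 of those 9 fits, with adjusted p of 0.0159 to 0.12. It was lost without LQ replicate 1, 2 or 3 (limma adjusted p = 0.101, 0.0972 and 0.12) and without WT replicate 2 or 3 (0.0916 and 0.102). Of all tested probe sets 0.0427%, 0.0305%, 0.0244%, 0.101% and 0.14% passed in these fits, in that order, beside 6.81% as reported. The loss was thus not particular to NEDD4L. Quantile normalization gave a change of 0.46 (limma adjusted p = 0.0879), and centring every array on its own median gave 1.21 (adjusted p = 0.0024). Under these settings 3.52% and 25.8% of all tested probe sets passed. The median change of all tested probe sets was -0.15 as deposited, 0.04 after quantile normalization and 0.44 after centring. Relative to that median NEDD4L was higher by 0.77, 0.42 and 0.77 on the log2 scale.

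**Figure D1:**
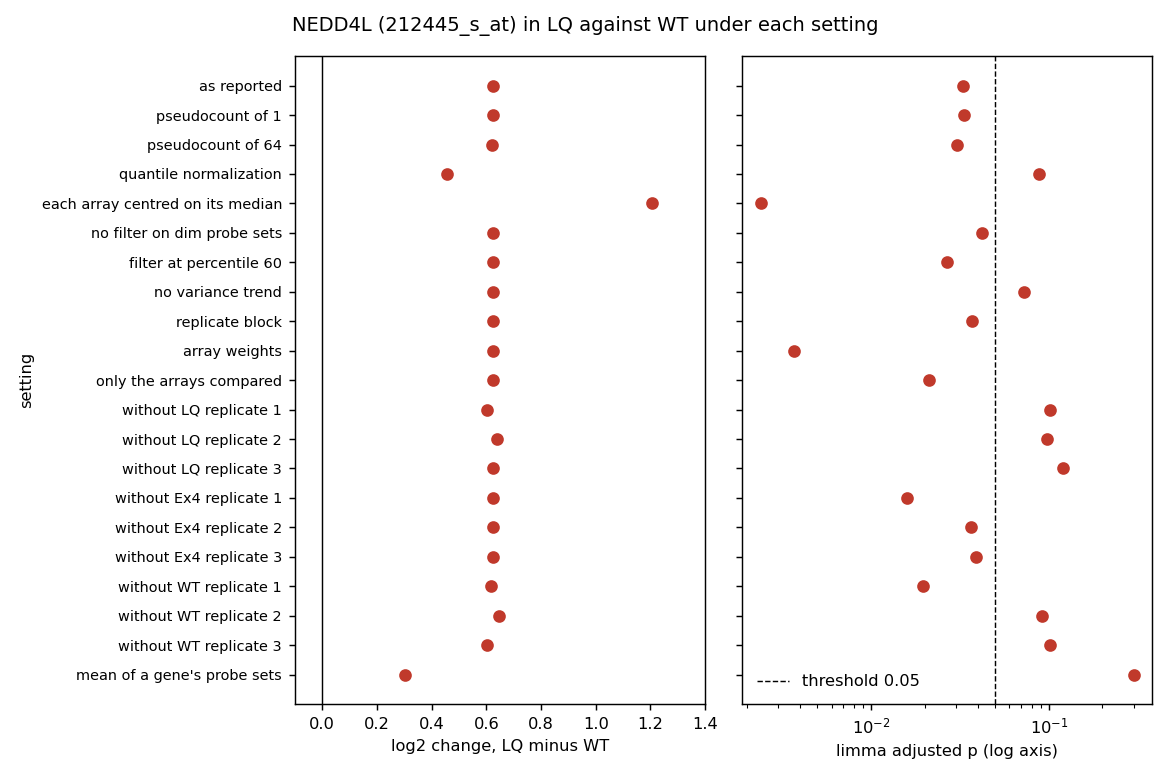
Log2 change (left) and limma adjusted p on a log axis (right) of NEDD4L probe set 212445_s_at in LQ against WT, with 1 row for each setting and the threshold of 0.05 as a dashed line. Every change is positive, from 0.30 to 1.21, while the adjusted p lies on both sides of the threshold, from 0.0024 to 0.3.

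NEDD4L had 6 probe sets, all tested, and they did not move as one. The second brightest, 226974_at, had 2940.7, 2900.8 and 2818.1 on LQ arrays, 2570.8, 3123.4 and 3081 on Ex4 arrays and 2208.6, 1934.7 and 1904.8 on WT arrays. Both mutants lay above all WT arrays there and overlapped each other. Its log2 change was 0.52 ± 0.18 in LQ (SE, limma adjusted p = 0.0847) and 0.53 ± 0.18 in Ex4 (adjusted p = 0.11). Without Ex4 replicate 1 the Ex4 change was 0.62 and passed (limma adjusted p = 0.0453), and without WT replicate 1 the LQ change was 0.58 and passed (0.0485).

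Probe set 236490_at of NEDD4L ran the other way. It had 307.6, 267.1 and 262.6 on LQ arrays, 491.4, 131.6 and 184.4 on Ex4 arrays and 702.4, 968.1 and 533.3 on WT arrays. Both mutants lay below all WT arrays, and all LQ arrays and 2 of the Ex4 arrays were under their array median. The log2 change was -1.31 ± 0.48 in LQ and -1.56 ± 0.48 in Ex4 (SE, limma adjusted p = 0.105 and 0.1). Without Ex4 replicate 1 the values were -1.31 in LQ and -2.08 in Ex4, and both passed (limma adjusted p = 0.047 and 0.0135).

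The other 3 probe sets of NEDD4L overlapped between each mutant and WT. The log2 changes in LQ and Ex4 were 0.20 and 0.09 on 212448_at, 0.57 and 0.03 on 241396_at, and 1.22 and 0.99 on 237498_at, where all 3 WT arrays were under their array median. Without Ex4 replicate 1 the Ex4 values were -0.06, 0.54 and 0.45. The size of the gap between LQ and Ex4 on 241396_at thus depends on that array, although LQ stayed the higher. Across the 9 arrays the correlation of each of the other 5 with 212445_s_at was -0.404 to 0.642, over arrays that share their scaling. The mean of the 6 probe sets had a log2 change of 0.30 in LQ (limma adjusted p = 0.3) and 0.05 in Ex4 (0.878), so the rise is a statement about 212445_s_at and not about every NEDD4L transcript.

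**Figure D2:**
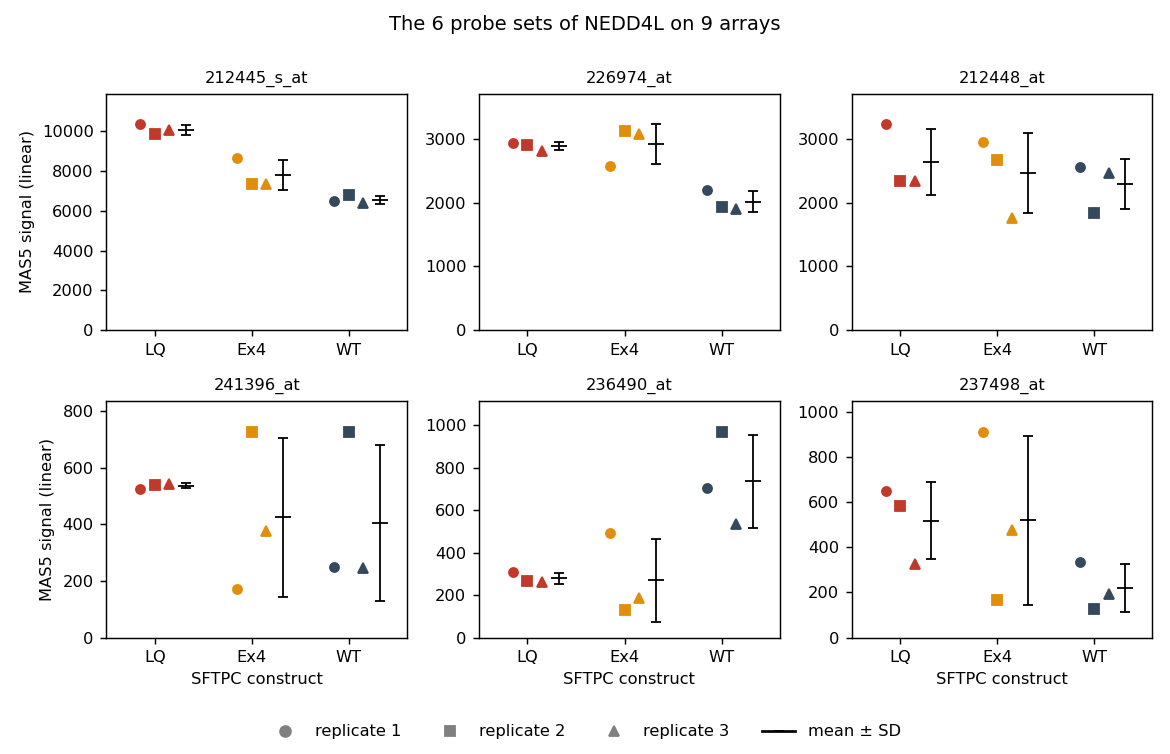
MAS5 signal on a linear axis of the 6 NEDD4L probe sets in LQ, Ex4 and WT cells, 1 symbol per array, with the mean and SD as a bar. The LQ arrays lie above the WT arrays on 212445_s_at and 226974_at and below them on 236490_at, and the groups overlap on the other 3.

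Promoters of the family were searched for sequence elements of the unfolded protein response, since NEDD4L passed in LQ in the same comparison as HERPUD1, a component of endoplasmic reticulum (ER)-associated degradation, and HSPA5, an ER chaperone. HERPUD1 had a log2 change of 1.26 ± 0.19 and HSPA5 of 0.77 ± 0.17 in LQ (SE, limma adjusted p = 0.0146 and 0.0327). In Ex4 HERPUD1 and HSPA5 had 0.95 and 0.79 (limma adjusted p = 0.0763 and 0.0769), where NEDD4L had 0.25 on 212445_s_at. In LQ 2231 of 32768 tested probe sets passed, so passing in the same comparison does not link these genes. RefSeq windows of 300 bases, 250 before and 50 after a transcript start on GRCh38.p14, were found for 8 members, all but WWP1, with 17 windows in all and 5 for NEDD4L. The first NEDD4L window by position, chr18:58046976-58047275 on the plus strand, and the HERPUD1 window, chr16:56931892-56932191 on the plus strand, are shown to set the promoter of the member that rose beside one that holds such an element. Capitals mark a CCAAT box in NEDD4L and the ERSE-II element in HERPUD1.
NEDD4L: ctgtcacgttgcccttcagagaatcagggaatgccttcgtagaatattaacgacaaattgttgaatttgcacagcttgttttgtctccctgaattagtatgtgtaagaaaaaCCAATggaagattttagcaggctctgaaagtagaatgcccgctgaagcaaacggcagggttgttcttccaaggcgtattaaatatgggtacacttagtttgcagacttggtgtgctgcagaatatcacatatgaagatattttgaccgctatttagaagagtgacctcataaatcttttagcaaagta
HERPUD1: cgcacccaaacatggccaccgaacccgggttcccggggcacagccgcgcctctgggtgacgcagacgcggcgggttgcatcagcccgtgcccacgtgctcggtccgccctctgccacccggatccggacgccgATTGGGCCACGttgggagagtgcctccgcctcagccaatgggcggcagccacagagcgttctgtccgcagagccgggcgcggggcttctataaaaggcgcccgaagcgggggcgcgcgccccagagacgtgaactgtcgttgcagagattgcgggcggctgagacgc
The ER stress element (CCAAT, 9 bases of any kind, CCACG), the ERSE-II element (ATTGG, 1 base of any kind, CCACG), the UPRE core TGACGTGG and the amino acid response core TGATGNAAT were each in 0 of the 17 member windows on either strand. Of 35116 windows of all genes, 0.0769%, 0.0541%, 0.729% and 0.991% held them. CCAAT alone, which is part of the ER stress element and, read on the other strand, of ERSE-II, was in 6 member windows of NEDD4, NEDD4L and WWP2 and in 34.6% of all windows. These are matches of letters in these windows and bear on no factor.

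NEDD4, the founding member, which acts on receptors and other membrane proteins, had 1 probe set. Its signal was 1835.8, 2299.5 and 2388.4 in LQ, 2881.6, 1963.8 and 2746.3 in Ex4 and 2668.3, 2324.6 and 1829.9 in WT. The 3 groups overlapped. Its log2 difference from WT was -0.06 ± 0.22 in LQ (SE, 95% interval -0.55 to 0.43, limma adjusted p = 0.888) and 0.15 ± 0.22 in Ex4 (95% interval -0.34 to 0.64, adjusted p = 0.709), and both intervals include 0.

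ITCH, known for its part in T cell tolerance and as a ligase of JUNB, had 6 tested probe sets. On the representative 209744_x_at the signal was 3313.3, 3307.8 and 3412.1 in LQ, 3059.9, 2600.6 and 3140.9 in Ex4 and 2632.8, 3585.3 and 3484.8 in WT. The WT arrays overlapped those of both mutants, and the LQ arrays lay above the Ex4 arrays. Its log2 difference from WT was 0.06 ± 0.18 in LQ (SE, 95% interval -0.33 to 0.46) and -0.13 ± 0.18 in Ex4 (95% interval -0.53 to 0.26, limma adjusted p = 0.847 and 0.684). By Affymetrix naming an x_at probe set may also bind other transcripts. Over the 6 probe sets the log2 change ran from -0.91 to 0.29 in LQ and from -0.95 to 0.53 in Ex4, and the lowest in both was 235057_at, under the array median on all 9 arrays. Without Ex4 replicate 1 the Ex4 value of 235057_at was -1.36 (limma adjusted p = 0.0885).

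WWP1, a ligase of KLF5 and other transcription factors, had 4372.8, 4626 and 4162.9 in LQ, 4780.7, 5150.5 and 4862.3 in Ex4 and 6492.5, 3972.7 and 4396.2 in WT on its representative 212638_s_at. WT replicate 1 was the highest of the 9 arrays and WT replicate 2 the lowest. Its log2 difference from WT was -0.14 ± 0.19 in LQ (SE, 95% interval -0.56 to 0.28) and 0.03 ± 0.19 in Ex4 (95% interval -0.39 to 0.44, limma adjusted p = 0.65 and 0.947). The second probe set, 212637_s_at, had 0.12 and 0.38, and without Ex4 replicate 1 the Ex4 value was 0.79 (limma adjusted p = 0.0869).

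WWP2, its close relative, had 1316.4, 1389.8 and 1540 in LQ, 1097.9, 1292.4 and 977.2 in Ex4 and 249.3, 1220.7 and 1625.9 in WT on its representative 204022_at. WT replicate 1 stood far below the other 8 arrays. The log2 change of 0.81 ± 0.52 in LQ (SE, 95% interval -0.32 to 1.94, limma adjusted p = 0.317) was the highest among the representatives, and it was 0.00 without WT replicate 1 and 1.32 without WT replicate 3. In Ex4 it was 0.48 ± 0.52 (SE, 95% interval -0.65 to 1.60, limma adjusted p = 0.595) and -0.33 without WT replicate 1.

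A second WWP2 probe set, 210200_at, had 820, 497.6 and 1010.3 in LQ, 963.7, 829.4 and 567.7 in Ex4 and 1447.1, 1132.9 and 1708.9 in WT. Both mutants lay below all WT arrays, opposite to the sign of the representative. On this probe set the log2 changes were -0.91 ± 0.32 in LQ and -0.86 ± 0.32 in Ex4 (SE, limma adjusted p = 0.0952 and 0.137). Of the 4 WWP2 probe sets 1 was too dim to be tested.

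SMURF1, which together with SMAD7 acts on TGF-beta receptors and also on SMAD proteins and RHOA, had the tightest WT arrays of the representatives. On 212666_at it had 1963.2, 1617.8 and 1750.6 in LQ, 2147.3, 2173.1 and 2140.6 in Ex4 and 2078.9, 2074.5 and 2091.9 in WT. All LQ arrays lay below, and all Ex4 arrays above, the WT arrays. Changes on the log2 scale were -0.23 ± 0.18 in LQ (SE, 95% interval -0.62 to 0.16) and 0.05 ± 0.18 in Ex4 (95% interval -0.34 to 0.44, limma adjusted p = 0.412 and 0.891), with an SE that is moderated towards that of probe sets of like signal. The change of LQ against Ex4 was -0.28 ± 0.18 (SE, limma adjusted p = 1). After centring on array medians the LQ value was 0.35, so its sign depends on the scaling.

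The dim SMURF1 probe set 232665_x_at had the widest change of the 29, with a log2 change of -1.86 ± 0.84 in Ex4 (SE, limma adjusted p = 0.195) and 0.07 ± 0.84 in LQ. Its WT signals were 1444.8, 143.6 and 221.3, so 1 array set the WT mean. On 215458_s_at the changes were -0.67 in LQ and -0.96 in Ex4 (limma adjusted p = 0.258 and 0.154), and without Ex4 replicate 1 the Ex4 value was -1.31 and passed (0.0384). Of the 5 SMURF1 probe sets 1 was too dim to be tested.

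SMURF2, also known to act on TGF-beta receptors and SMAD proteins, had 4085.5, 5421 and 3825.8 in LQ, 5097.6, 4681.7 and 6329 in Ex4 and 5797.4, 5480.1 and 4465.4 in WT on 205596_s_at. The groups overlapped, with log2 changes of -0.25 ± 0.19 in LQ (SE, 95% interval -0.67 to 0.18) and 0.03 ± 0.19 in Ex4 (95% interval -0.39 to 0.45, limma adjusted p = 0.418 and 0.94). Its probe set 230820_at had 1111.5, 910.3 and 1676.4 in LQ, 1507.9, 1210.1 and 2652.1 in Ex4 and 1026.7, 750.1 and 838.3 in WT. There the Ex4 arrays lay above all WT arrays, and the changes were 0.46 ± 0.32 in LQ and 0.96 ± 0.32 in Ex4 (SE, limma adjusted p = 0.366 and 0.115).

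HECW1 and HECW2 are known mainly from neural tissue, and HECW1 is known for binding dishevelled. HECW1 had 558.1, 643.7 and 492.2 in LQ, 640.8, 517.6 and 348.7 in Ex4 and 402.7, 1080.8 and 1215.3 in WT on 215584_at. WT replicate 1 was below the other WT arrays and within the range of the mutants. Its log2 changes were -0.52 ± 0.42 in LQ (SE, 95% interval -1.43 to 0.39) and -0.72 ± 0.42 in Ex4 (95% interval -1.62 to 0.19, limma adjusted p = 0.429 and 0.303), and without WT replicate 1 it was -1.01 (0.0653) and -1.21 (0.0446), so the Ex4 value then passed. The other tested HECW1 probe set, 210331_at, had -1.09 ± 0.55 in LQ and -0.31 ± 0.55 in Ex4 (SE, limma adjusted p = 0.215 and 0.755).

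HECW2 had 863.1, 696.8 and 891.2 in LQ, 788.7, 883.4 and 1241.1 in Ex4 and 1238.9, 580 and 908.1 in WT on 232080_at. The groups overlapped, with log2 changes of -0.09 ± 0.32 in LQ (SE, 95% interval -0.78 to 0.59) and 0.13 ± 0.32 in Ex4 (95% interval -0.55 to 0.82, limma adjusted p = 0.867 and 0.825). HECW1 had 1 and HECW2 had 2 further probe sets that were too dim to be tested, with signals of 18.7 to 249.8 and of 8.5 to 233.2.

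**Figure D3:**
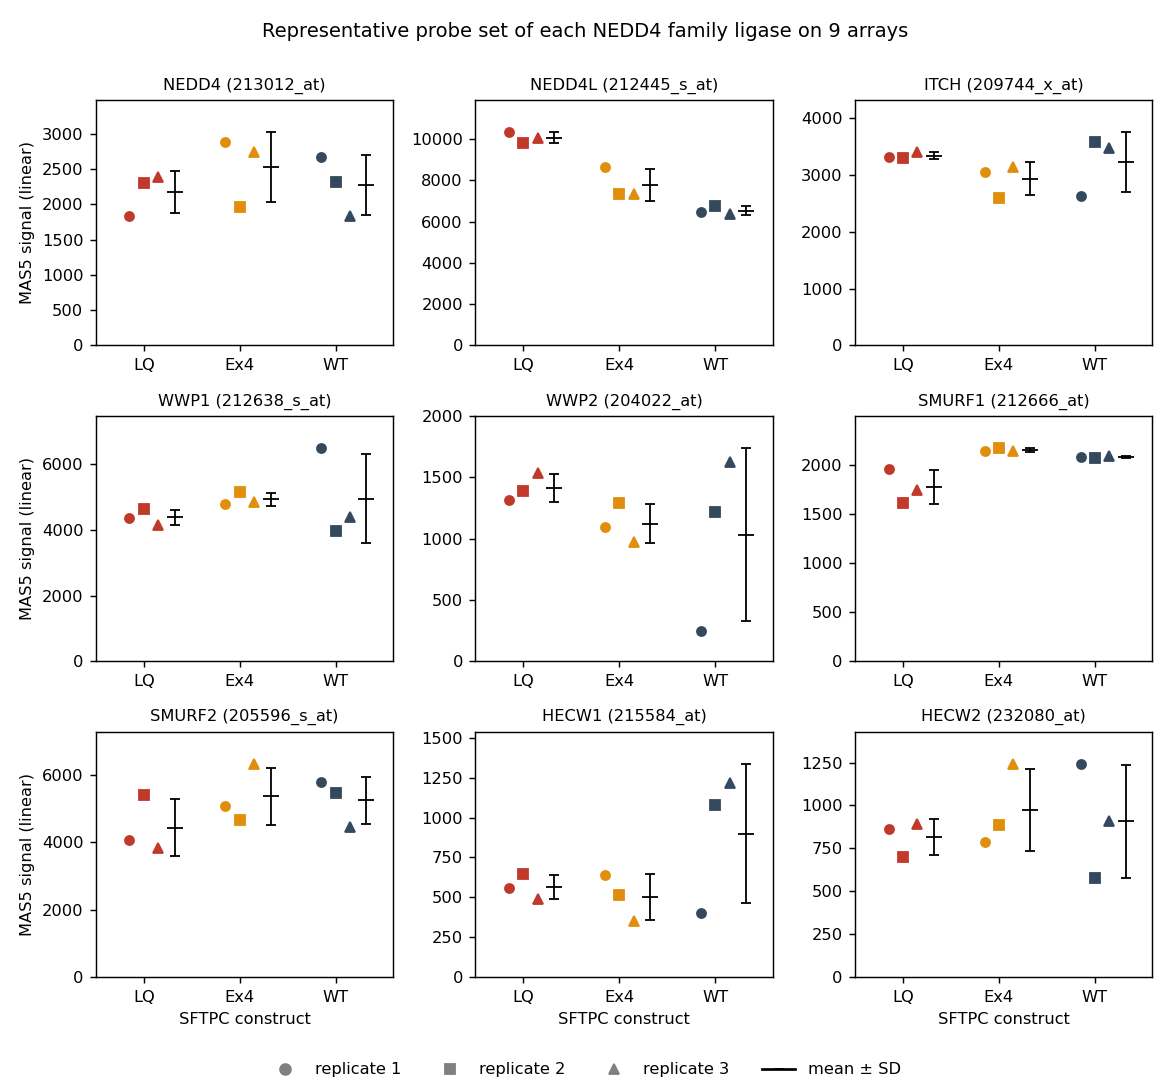
MAS5 signal on a linear axis of the representative probe set of each member in LQ, Ex4 and WT cells, 1 symbol per array, with the mean and SD as a bar. The 3 groups do not overlap for NEDD4L, whose LQ change passed the threshold, or for SMURF1, whose changes did not. For ITCH, WWP1, WWP2, HECW1 and HECW2 the WT arrays had a larger SD than those of either mutant.

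Across the family, 29 of the 34 probe sets were bright enough to be tested, and every member was represented among them. In LQ against WT 1 of 29 was called higher and 0 lower, that is 3.45%, beside 3.09% higher and 3.72% lower, 6.81% in all, of the tested probe sets, and 4 of 29 had an unadjusted p under 0.05, beside 28.9%. Among representatives 1 of 9 was called higher and 0 lower, beside 3.69% and 3.63% of 14018. The share of member probe sets that were called is thus near the background and is not a result about the family. In Ex4 against WT 0 of 29 were called by limma, beside 0.0122% of all in either direction, and 6 of 29 had an unadjusted p under 0.05, beside 24.9%. In LQ against Ex4 0 of 29 were called, beside 0.0061% of all, and 2 had an unadjusted p under 0.05, beside 4.1%.

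The arrays of 2 groups did not overlap for a minority of member probe sets. In LQ 2 of 29 lay above all WT arrays and 4 below, beside 13.1% and 24.2% of all tested probe sets. In Ex4 4 lay above and 3 below, beside 7.48% and 15%. In LQ against Ex4 5 lay above and 3 below, beside 5.62% and 6.34%. The median log2 change of the 29 was 0.06 in LQ and 0.05 in Ex4, beside -0.15 and -0.12 over all tested probe sets. After centring on array medians they were 0.64 and 0.54 beside 0.44 and 0.37, so both the family's median and that of all probe sets moved with the scaling. The representatives were positive for 3 of 9 members in LQ and 7 of 9 in Ex4 as deposited, and for 9 and 8 after centring.

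**Figure D4:**
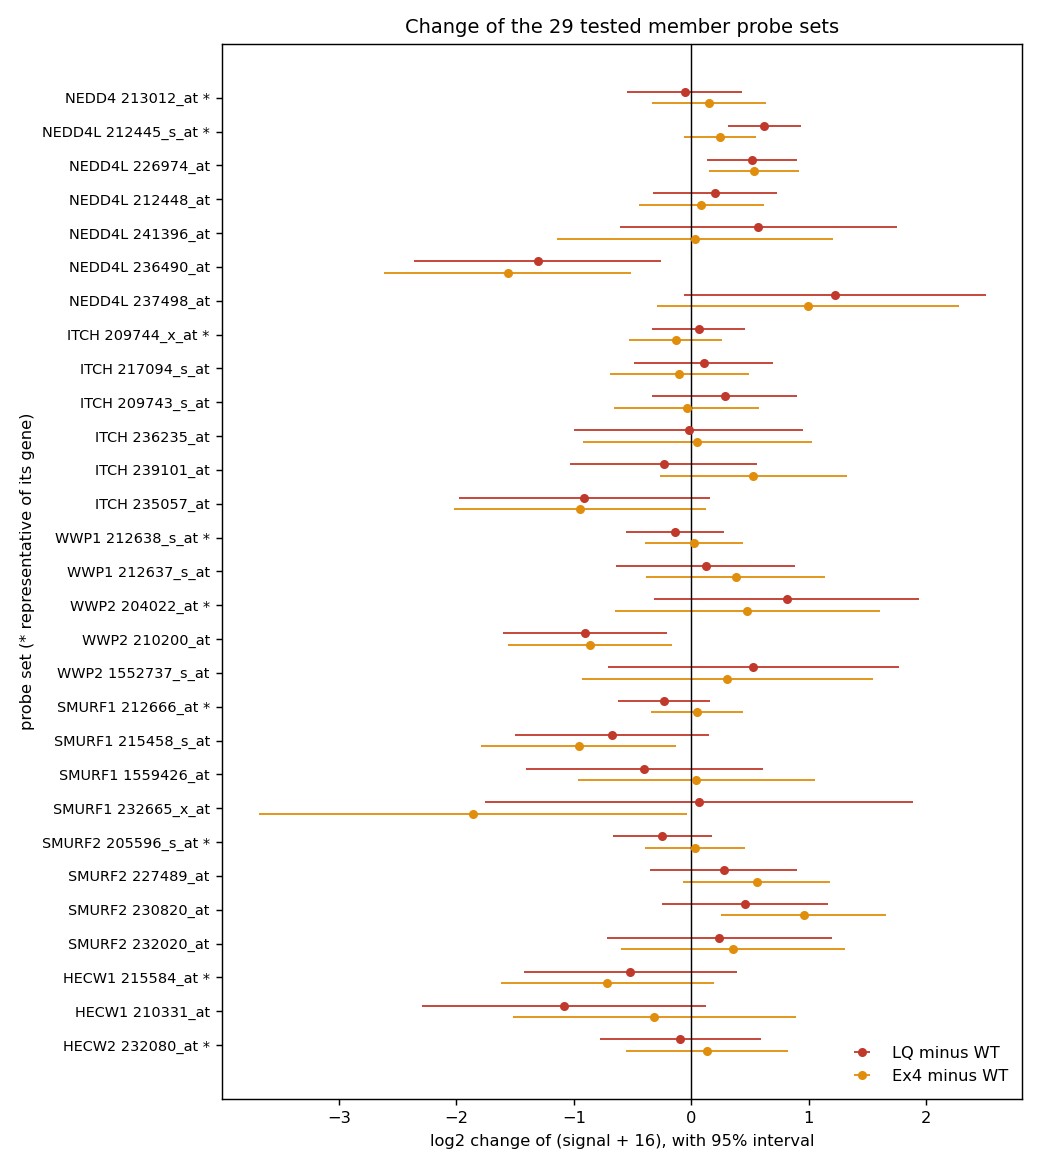
Log2 change of (signal + 16) with its 95% interval for the 29 tested member probe sets, LQ minus WT and Ex4 minus WT, with representatives marked by an asterisk. Most intervals include 0, the probe sets of one gene lie on both sides of 0, and the changes run from -1.31 to 1.22 in LQ and from -1.86 to 0.99 in Ex4; both contrasts share the WT arrays.

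Probe sets of one member did not always move together. Among the 20 tested probe sets that were not representatives, the correlation with the representative over 9 arrays was -0.404 to 0.808, and it was negative for 6. ITCH had the highest, at 0.78 and 0.808 for the other 2 bright probe sets. For SMURF2 all 3 were positive but low, at 0.133 to 0.393.

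The genes whose profile was most like that of NEDD4L over the 9 arrays, among 14017 other representatives, were ACYP2, an acylphosphatase (Pearson r = 0.966), ABI1, an adaptor of actin regulation (0.962), and GADD45A, a stress-inducible growth arrest gene (0.954). Each rose in LQ, with log2 changes of 0.77, 0.60 and 1.10 (limma adjusted p = 0.0446, 0.0368 and 0.0254), and had 0.37, 0.34 and 0.39 in Ex4 without passing (0.266, 0.176 and 0.281). For NEDD4 they were RUNDC3A (0.921), STXBP5, a syntaxin-binding protein (0.919), and CLDN12, a claudin (0.904), with log2 changes of -0.05 to -0.02 in LQ. These likenesses are over arrays that share scaling and groups and were picked as the highest of many.

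Other genes of the pathway were described from 6 lists, of which 88 of 108 genes were tested. In LQ 7 were called higher and 1 lower, that is 7.95% and 1.14%, beside 3.69% and 3.63% of 14018 representatives. In Ex4 0 of 88 passed by limma, beside 0% of representatives. An unadjusted p under 0.05 was found for 24 of 88 in LQ and 27 of 88 in Ex4, beside 30.6% and 27.2%. The lists were chosen with earlier results in view, and their counts are descriptions. The Ex4 counts rest on single arrays: of 19 companion genes named here 0 passed in Ex4, but 11 did without Ex4 replicate 1 and 9 without WT replicate 1, fits in which 13.5% and 11.2% of all probe sets passed. The 11 were CYLD, HECTD2, HUWE1, KLF5, N4BP1, STAM, TP73, UBE2D4, UBE2E1, USP8 and VPS4B. All of the 19 but NDFIP1, NDFIP2 and SGK1 were named for the size or the adjusted p of their change. No result is thus drawn from these counts beside the shares of all probe sets.

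Adaptors and regulators bring the ligases to substrates or hold them in check. Of 18 tested, 1 rose in LQ and 9 had positive changes, beside 43.6% positive of all representatives, with a median log2 change of 0.00. ARRDC4, an alpha-arrestin with PY motifs, had 4934.7, 5343.9 and 6890.9 in LQ, 4497.3, 5376.4 and 3790 in Ex4 and 3532.8, 3221.4 and 3344.1 in WT. Both mutants lay above all WT arrays, and the LQ change was 0.75 ± 0.19 (SE, limma adjusted p = 0.0406, or 0.0653 on quantile-normalized values). NDFIP1 and NDFIP2, the membrane adaptors that activate NEDD4 family ligases, had -0.01 and 0.11 in LQ and 0.12 and 0.28 in Ex4 (limma adjusted p = 0.97, 0.755, 0.704 and 0.449). SGK1, the kinase that restrains NEDD4L, had 0.28 in LQ and -0.03 in Ex4 (limma adjusted p = 0.567 and 0.958).

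In Ex4 the largest changes of that list were N4BP1, an inhibitor of ITCH, at -0.97, and SMAD6, an inhibitory SMAD, at -0.54 (limma adjusted p = 0.0869 and 0.226). Without Ex4 replicate 1 N4BP1 had -1.32 and SMAD6 -0.29 (limma adjusted p = 0.00445 and 0.437). The other 3 probe sets of N4BP1 had positive changes of 0.23, 1.32 and 0.24 in Ex4. Its representative is thus the exception among them.

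The conjugating enzymes (E2) hand ubiquitin to the HECT domain. Of 5 tested, 1 rose and 1 fell in LQ. UBE2E1 had 29453, 30187.6 and 24240.5 in LQ, 17274, 29157.3 and 30301.9 in Ex4 and 15553.4, 12411.2 and 12841.7 in WT. It was 2.06-fold higher in LQ than in WT (log2 change 1.04 ± 0.21, SE, limma adjusted p = 0.0264) and had 0.87 in Ex4 (0.0775), or 1.13 without Ex4 replicate 1 (0.0035), which was the lowest Ex4 array. UBE2D4 had 1897.9, 1777.4 and 2291.7 in LQ, 2929.7, 2257.1 and 1954.3 in Ex4 and 4516.1, 6024.1 and 6669.9 in WT. It fell in LQ, with a log2 change of -1.51 ± 0.22 (SE, limma adjusted p = 0.0131), and had -1.26 in Ex4 (0.0763). Its other 4 probe sets had -0.89 to -0.22 in LQ and did not pass. Whether the UBE2D4 probe sets also bind transcripts of other UBE2D genes was not tested.

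Deubiquitinases oppose the ligases. Of 6 tested, 1 rose in LQ, and 4 had positive changes, beside 43.6% positive of all representatives. CYLD, which removes linear and K63-linked ubiquitin chains, had 3246.7, 2816.2 and 3435.5 in LQ, 2077.7, 2445 and 3445.6 in Ex4 and 1476.8, 1417.3 and 2005.1 in WT. All mutant arrays lay above the WT arrays, with log2 changes of 0.96 ± 0.23 in LQ and 0.68 ± 0.23 in Ex4 (SE, limma adjusted p = 0.0365 and 0.114). The other 5 tested probe sets of CYLD had -0.17 to 0.74 in LQ and did not pass. USP8, which acts at endosomes, had 0.69 in LQ and 0.73 in Ex4 (limma adjusted p = 0.071 and 0.0949).

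Substrates are proteins on which family members act. Of 21 tested, 0 passed in LQ by limma, 4 had an unadjusted p under 0.05, and the median log2 change was -0.03. SCNN1A, the alpha subunit of the epithelial sodium channel and a target of NEDD4L, had 445.8, 505.1 and 72 in LQ, 734.2, 355.6 and 431.8 in Ex4 and 1085.2, 1538.9 and 802.2 in WT. Both mutants lay below all WT arrays, with log2 changes of -2.02 ± 0.60 and -1.16 ± 0.60 (SE, limma adjusted p = 0.061 and 0.248). LQ replicate 3 was the lowest array, and without it the LQ change was -1.19 (limma adjusted p = 0.161). The other SCNN1A probe sets, 215026_x_at and 203453_at, were too dim to be tested, as were SCNN1B and SCNN1G of the same list. KLF5 had -0.97 in LQ (limma adjusted p = 0.194), while its other tested probe set, 209211_at, had 0.07 (0.883). TP73, a p53 relative bound by ITCH, had -1.17 in Ex4 (0.0864).

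The ESCRT machinery sorts ubiquitinated membrane proteins into multivesicular bodies. Of 21 tested, 1 rose in LQ, that is 4.76%, beside 3.69% of all representatives. Positive changes were found for 17, beside 43.6% of all representatives. The median log2 change was 0.20 beside -0.09 over all representatives. STAM, a ubiquitin-binding subunit of ESCRT-0, had 5256.5, 5488 and 5104.7 in LQ, 2772.2, 5107.6 and 4889.4 in Ex4 and 3211.8, 2876.8 and 2859.9 in WT. It was 1.77-fold higher in LQ (log2 change 0.82 ± 0.22, SE, limma adjusted p = 0.0477, or 0.0727 on quantile-normalized values), and Ex4 replicate 1 lay below all WT arrays. Its Ex4 change was 0.46, and 0.74 without that array (limma adjusted p = 0.22 and 0.0178). STAM2 and VPS4B, the ATPase that takes ESCRT-III apart, had 0.84 and 0.68 in Ex4 (limma adjusted p = 0.093 and 0.0924). The other tested STAM2 probe sets, 228254_at, 215044_s_at, 242569_at and 208194_s_at, had -0.23, -0.49, -0.49 and -0.23 in Ex4, so its representative is the exception there. Of these, 242569_at fell in LQ at -1.30 ± 0.27 (SE, limma adjusted p = 0.0284), against 0.67 on the representative.

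HECT ligases outside the NEDD4 family share the catalytic domain without the NEDD4 arrangement of C2 and WW domains. Of 17 tested, 3 were called higher in LQ, that is 17.6%, beside 3.69% of all representatives. Positive changes were found for 14, beside 43.6% of all representatives. The median log2 change was 0.27 beside -0.09 over all representatives. HECTD2 had 5868.6, 5100.2 and 5057.1 in LQ, 3417.9, 4771.8 and 5712.8 in Ex4 and 2313.6, 899.9 and 1194.8 in WT. All mutant arrays lay above the WT arrays, with log2 changes of 1.96 ± 0.31 in LQ and 1.73 ± 0.31 in Ex4 (SE, limma adjusted p = 0.0162 and 0.0763). Its other tested probe set, 238803_at, overlapped between LQ and WT, with -0.10 in LQ and 0.46 in Ex4 (limma adjusted p = 0.902 and 0.547). HUWE1, a large ligase of many nuclear proteins, had 0.80 ± 0.18 in LQ and 0.93 ± 0.18 in Ex4 (SE, limma adjusted p = 0.0307 and 0.0763). Its second brightest probe set, 208598_s_at, had -0.01 in LQ, and another, 214673_s_at, had -1.47 (limma adjusted p = 0.96 and 0.0878). The mean of its 5 probe sets had -0.135 in LQ (limma adjusted p = 0.681), so the rise belongs to 207783_x_at. That is an x_at probe set, which may also bind other transcripts, so the rise may not be that of HUWE1.

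HERC4 had 0.96 ± 0.26 in LQ (SE, limma adjusted p = 0.0463, or 0.0675 on quantile-normalized values), while its probe set 208055_s_at also passed, at 1.31 ± 0.32 (0.0393). Of the fits that left out 1 array, HERC4 passed in 1 of 9. STAM passed in 3 of 9, and ARRDC4, UBE2E1, UBE2D4, CYLD, HECTD2 and HUWE1 in 4 of 9 each, with the direction kept throughout. In the fits without an LQ array, or without WT replicate 2 or 3, at most 0.14% of all tested probe sets passed. After centring on array medians all 8 passed with the same sign, in a fit where 25.8% of all tested probe sets passed. Without the variance trend only HECTD2 and UBE2D4 passed, beside 1.35% of all tested probe sets. When the probe sets of a gene were averaged, only ARRDC4, STAM, UBE2D4 and UBE2E1 passed, beside 7.88% of all genes.

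**Figure D5:**
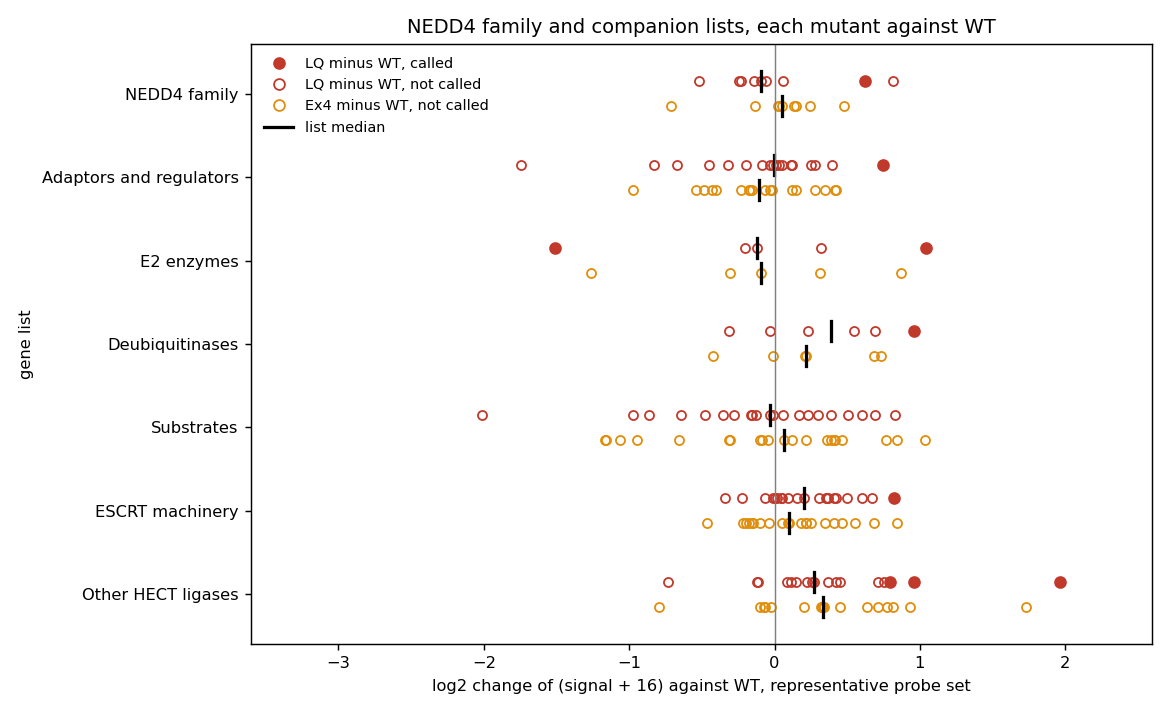
Log2 change of (signal + 16) of the representative probe set of each tested gene in the NEDD4 family and in 6 companion lists, LQ minus WT and Ex4 minus WT, with filled points for genes past the threshold and a bar for each list's median. NEDD4L is the filled point of the NEDD4 family, 8 companion genes are filled in LQ, and none is filled in Ex4.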

How the data were processed

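RNA from transfected HEK293 cells, with 3 arrays per group, was measured on Affymetrix arrays. The deposited values are 1 linear intensity per probe set and array, made by the authors with MAS5 per the submitters' processing notes; no genome build is named in those notes. That algorithm scales each array to a common mean, so a shift of dim probe sets between groups moves the array medians, and that scaling was kept. Detection calls were not used here. The platform annotation gave 1 gene symbol to 41091 of 54613 non-control probe sets, several to 1801 and none to 11721, and symbols were updated by gene identifier through RefSeq. No gene coordinates are printed apart from RefSeq promoter windows.

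Values were used as log2(intensity + 16). Probe sets under percentile 40 of the mean were left out, and 32768 were tested in 1 limma model (version 3.58.1, R 4.3.3) of all 9 arrays with a variance trend, two-sided, with Benjamini-Hochberg adjustment and a threshold of 0.05. The model was tested on simulated data. Alternative settings used a pseudocount of 1 or 64, quantile normalization, median centring, no filter and percentile 60, array weights, a fit without the variance trend, a fit of the arrays in the contrast alone, a block for the replicate number, averaging of all probe sets of a gene, and leaving out arrays singly. Whether the arrays of a group came from separate transfections is not labelled, so the p-values reflect array-to-array spread, which may be technical, and precision is limited by how many arrays there are. The members and lists were chosen with earlier results of these data known. From each list the text names up to 3 genes past the threshold with the smallest adjusted p in each mutant, or the 2 largest changes where none passed, and always NDFIP1, NDFIP2 and SGK1. For NEDD4 and NEDD4L it names the 3 genes of highest correlation.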

Additional observations from a re-analysis of the deposited data

How the results depend on the processing

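In LQ against WT the number of member probe sets past the threshold was 1 as reported and with a pseudocount of 1 or 64, no filter, a filter at percentile 60 or the replicate block. It was 0 after quantile normalization, 0 without the variance trend, 0 when all probe sets of a gene were averaged, 2 with only the arrays compared, 5 with array weights (3 higher, 2 lower), 6 after centring on array medians (all higher), and 0 to 2 without 1 array. In Ex4 against WT it was 0 as reported and with the replicate block, 4 after centring, 4 with array weights and 0 to 3 without 1 array. In LQ against Ex4 it was 0 in every setting run. These counts out of 29 (9 where probe sets were averaged) are read against the share of all probe sets that passed: in LQ 12.3% with only the arrays compared, 26.2% with array weights and 25.8% after centring, and in Ex4 15.6% after centring, 16.1% with array weights and 13.5% without Ex4 replicate 1. The replicate block changed no call of a member; of the named companion genes STAM lost and SCNN1A gained its call in LQ. Same-numbered arrays had correlated deviations from their group means above 0.1 in 4 of 9 pairs (-0.083 to 0.191), so the numbers are not taken to pair the samples. No called value of a member changed sign, while HUWE1 in LQ had -0.135 when its probe sets were averaged. Of 549 values each for LQ against WT, Ex4 against WT and LQ against Ex4, 35, 36 and 27 that did not pass changed sign under a setting. The share of all tested probe sets that passed in LQ was 6.81% as reported, 3.52% after quantile normalization and 0.0244% to 15.2% without 1 array. The cause of these shifts was not tested. The dim probe sets of HECW1, HECW2, SMURF1 and WWP2 that were left out limit what can be said of them.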
